A study of Mus musculus with 6 samples.

Results

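A set of 6 genes of secreted proteins of the whey acidic protein (WAP) family, Slpi, Wfdc2, Wfdc3, Wfdc15b, Wfdc17 and Wfdc21, was followed through whole-liver RNA sequencing of ethanol-fed mice. They are 6 of the 54532 genes of the count table, found by their Ensembl identifiers, and they were chosen on the measured difference between these same livers, because some were much higher and others much lower. That difference is therefore given below as a description, and calls on the members say nothing beyond the choice. The knockout group was 3 livers of LysMcre/+ Cd44flox/flox mice, in which Cre expressed from the lysozyme locus Lyz2 deletes floxed Cd44, the gene of a hyaluronan receptor, in myeloid cells. The control group was 3 livers of LysM+/+ Cd44flox/flox littermates, which carry the same floxed gene without Cre. All 6 mice were on the C57BL/6J/Rj background and had taken a liquid Lieber-DeCarli diet with 6% ethanol by volume for 10 days, followed by a gavage of 5 g ethanol per kg on day 11 and death 9 hours later. The sources used here give no age or sex and no pooling of animals. Every liver had been exposed to ethanol, and no livers with Cre alone or without ethanol were analysed here, so the Cre insertion, which also takes 1 allele of Lyz2, and the loss of Cd44 cannot be told apart.

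WAP-domain proteins are small, cysteine-rich and mostly secreted, and each WAP domain is a compact fold held by disulfide bonds between 8 cysteines. Several are inhibitors of serine proteases. Slpi, the secretory leukocyte protease inhibitor, blocks neutrophil elastase and cathepsin G, and in macrophages it damps the response to endotoxin. Wfdc2, known as HE4 in human tumour diagnostics, is an epithelial product, and Wfdc17, also called AMWAP, was described in activated microglia and macrophages. Wfdc21, also called Wdnm1-like, is a small secreted protein described in adipose tissue, and Wfdc15b is a protein with a single WAP motif and antibacterial activity. The alcohol-exposed liver receives bacterial endotoxin from the gut, and it draws in neutrophils, whose granules hold the proteases that Slpi inhibits.

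The coding sequences show what the members share and where Wfdc21 departs from the others, and they are printed for that reason. A WAP pattern was searched for as 8 consecutive cysteine codons whose last 6 are spaced by 5, 5, 0, 3 and 3 or 4 codons. Slpi, Wfdc2 and Wfdc3 each held 2 such patterns, Wfdc15b and Wfdc17 each held 1, and Wfdc21 held 0. Wfdc21 has no adjacent pair of cysteine codons, and its 6 cysteine codons are spaced by 3, 5, 5, 4 and 3 codons. The gap of 4 stands where the pattern has gaps of 0 and 3. By this spacing the later codon of the pair is absent, as is the first cysteine codon of the pattern. The lines below are written from 5′ to 3′ on the coding strand, with cysteine codons in capitals, from the GENCODE M21 transcripts. For Slpi they run over both patterns (codons 36 to 127), as for Wfdc3 (codons 25 to 102), for Wfdc2 and Wfdc15b over the patterns alone, and for the neighbouring genes Wfdc17 and Wfdc21 over the whole coding sequence.
Slpi, both patterns: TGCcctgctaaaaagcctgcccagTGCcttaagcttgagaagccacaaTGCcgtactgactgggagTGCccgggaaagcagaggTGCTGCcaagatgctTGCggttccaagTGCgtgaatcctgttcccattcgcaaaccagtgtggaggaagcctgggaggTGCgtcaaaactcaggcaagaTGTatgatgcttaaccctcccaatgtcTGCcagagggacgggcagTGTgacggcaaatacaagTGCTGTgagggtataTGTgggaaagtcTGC
Wfdc3, both patterns: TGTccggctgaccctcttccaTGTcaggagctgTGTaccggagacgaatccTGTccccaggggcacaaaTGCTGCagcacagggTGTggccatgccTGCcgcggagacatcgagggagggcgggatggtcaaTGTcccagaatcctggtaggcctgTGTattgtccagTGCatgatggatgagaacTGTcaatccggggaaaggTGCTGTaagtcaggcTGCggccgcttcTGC
Wfdc2, first pattern: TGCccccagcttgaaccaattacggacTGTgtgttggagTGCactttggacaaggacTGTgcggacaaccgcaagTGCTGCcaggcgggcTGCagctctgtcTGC
Wfdc2, second pattern: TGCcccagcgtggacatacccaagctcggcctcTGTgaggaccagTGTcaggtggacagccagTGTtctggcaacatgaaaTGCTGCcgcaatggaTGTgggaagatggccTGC
Wfdc15b, the pattern: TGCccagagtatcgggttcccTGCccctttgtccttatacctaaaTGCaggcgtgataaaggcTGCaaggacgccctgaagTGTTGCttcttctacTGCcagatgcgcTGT
Wfdc17, 76 codons: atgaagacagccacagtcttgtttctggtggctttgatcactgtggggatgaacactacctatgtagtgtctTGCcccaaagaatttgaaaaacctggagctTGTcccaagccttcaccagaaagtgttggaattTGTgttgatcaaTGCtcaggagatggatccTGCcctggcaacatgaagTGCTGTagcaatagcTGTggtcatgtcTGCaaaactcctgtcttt
Wfdc21, 63 codons: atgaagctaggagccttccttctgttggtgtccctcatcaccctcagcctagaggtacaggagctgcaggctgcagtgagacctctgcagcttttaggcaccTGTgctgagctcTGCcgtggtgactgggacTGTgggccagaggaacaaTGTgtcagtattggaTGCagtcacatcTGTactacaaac

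Although the cysteine pattern recurs, the genes themselves are far from alike. The coding sequence of Wfdc17 was identical to that of Wfdc21 at 50% of the longer sequence, and to that of its closer neighbour Wfdc18 at 79.4%. No stretch of 50 bases was shared between any pair of the transcripts compared, which were those of the 6 members, Wfdc18 and Wfdc1, and Wfdc17 and Wfdc18 shared 6 stretches of 25 bases. Reads that match both Wfdc17 and Wfdc18 could have been split between them or dropped, since how such reads were counted is not given in the sources used here.

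Total counts per library ran from 18428224 to 24042917, so that 3 counts corresponded to 0.119 to 0.148 CPM, the counts scaled to a library of standard size (counts per 1e+06). The targeted gene, Cd44, was at 2.11, 1.92 and 3.00 CPM in knockout livers 1, 2 and 3, against 32.6, 34.7 and 26.4 CPM in control livers 1, 2 and 3 (log2 −3.73, SE 0.20, edgeR quasi-likelihood adjusted p = 9.07e-05). For Lyz2 the values were 41.3, 36.9 and 66.5 CPM in knockout livers and 195, 218 and 235 CPM in the controls (log2 −2.16, SE 0.22, edgeR adjusted p = 0.000756). The 2 groups did not overlap for either gene, and both differences have the sign that the genotypes call for. All livers in lists of values below are in the order 1, 2, 3, and log2 values are the knockout over the control.

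Slpi and Wfdc3 were the members that were lower in the knockout livers by the widest margins. Slpi (ENSMUSG00000017002, chromosome 2, 164354070 to 164389095 on the minus strand, GRCm38, protein-coding) had 40, 29 and 35 counts in the knockouts and 394, 350 and 355 counts in the controls. Scaled for depth these were 1.92, 1.39 and 1.72 CPM in the knockout livers and 15.6, 16.9 and 15.4 CPM in the control livers. The control values lay close together, and the highest knockout liver was far under the lowest control. Slpi averaged 1.68 ± 0.26 CPM in knockouts and 16 ± 0.80 CPM in controls (SD, n = 3 each), a log2 difference of −3.25 (SE 0.17), or 9.50-fold lower. The microRNA gene Mir7678 lies inside Slpi on the same strand, and how reads that overlap both genes were assigned is not given in the sources used here. In whole liver, fewer cells that express a gene and less RNA per cell cannot be told apart, here and for every gene below.

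Wfdc3 (ENSMUSG00000076434, chromosome 2, 164731180 to 164745931 on the minus strand) showed the larger difference. It had 13, 9 and 24 counts in knockout livers, against 507, 669 and 473 counts in control livers. In CPM it stood at 0.62, 0.43 and 1.18 in the knockouts and at 20.1, 32.3 and 20.5 in the controls. Control liver 2 was the highest and knockout liver 3 the highest of the knockouts, yet the groups were far apart. The mean was 0.746 ± 0.390 CPM in knockouts and 24.3 ± 6.92 CPM in controls (SD, n = 3 each), with a log2 difference of −5.02 (SE 0.34), 32.5-fold lower. Without knockout liver 3 the log2 difference was −5.51.

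Wfdc21 and Wfdc2 were the members that were higher in knockout livers. Wfdc21 (ENSMUSG00000051748, chromosome 11, 83746940 to 83752642 on the plus strand) had the highest counts of the members in every liver, at 265, 527 and 317 CPM in the knockouts and 145, 111 and 109 CPM in the controls. Knockout liver 2 was well above the other knockouts, and the lowest knockout liver was still above the highest control. The means were 369.7 ± 138 CPM in knockouts and 122 ± 20.1 CPM in controls (SD, n = 3 each), with a log2 difference of 1.6 (SE 0.26), 3.03-fold higher. Left without knockout liver 2 the log2 difference was 1.26, and without knockout liver 1 it was 1.80.

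Wfdc2 (ENSMUSG00000017723, chromosome 2, 164562413 to 164568510 on the plus strand) stood at 13.99, 17.7 and 20.5 CPM in knockout livers and at 6.59, 8.45 and 6.91 CPM in control livers. The lowest knockout liver was above the highest control. Wfdc2 averaged 17.4 ± 3.29 CPM in knockouts and 7.31 ± 0.998 CPM in controls (SD, n = 3 each), and the log2 difference was 1.25 (SE 0.18), 2.38-fold higher. Wfdc2 lies between Slpi and Wfdc3 on chromosome 2, both of which were lower in the same livers.

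Wfdc17 (ENSMUSG00000069792, chromosome 11, 83703991 to 83706268 on the plus strand) was the member whose groups overlapped among those with enough counts. Its levels were 8.86, 6.54 and 15.2 CPM in knockout livers and 23.7, 15.4 and 13.8 CPM in the controls. Knockout liver 3 was above control liver 3, and control liver 1 was apart from the other controls. The log2 difference was −0.79 (SE 0.32), and it was −1.19 without knockout liver 3 and −0.50 without control liver 1. Wfdc15b (ENSMUSG00000018211, chromosome 2, 164214454 to 164221660 on the minus strand) had 6, 1 and 1 counts in the knockouts and 2, 8 and 6 counts in the controls. These counts are near the limit of detection, overlap between the groups, and no difference was detectable at this depth.

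**Figure D1:**
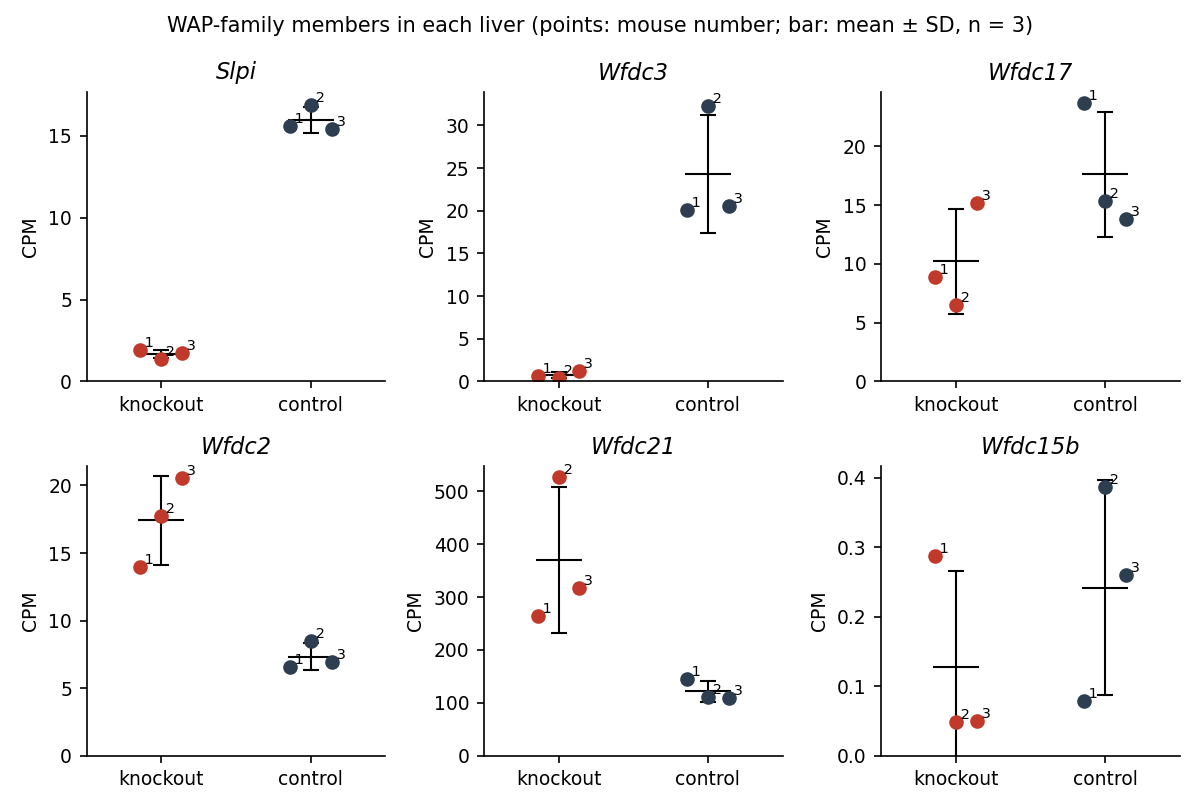
CPM (linear axis, starting at 0) of the 6 members in each liver, knockout left and control right, with the mouse number beside each point and bars for the mean ± SD (n = 3). Slpi and Wfdc3 knockouts lie near 0, Wfdc2 and Wfdc21 knockouts lie above every control, and the groups of Wfdc17 and Wfdc15b overlap.

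Of the 6 members, 5 passed the filter on low counts, and 4 of these 5 had an adjusted p under 0.05 in the edgeR fit over all genes, 2 higher and 2 lower in the knockouts. Of all 14758 genes tested, 25% passed, 11.9% higher and 13.1% lower. The groups did not overlap for 43.8% of the genes tested. Because the members were chosen on this contrast, their count says nothing beyond the choice. The signs of the 5 tested members were the same in all 14 alternatives, which included leaving out each liver in turn. Scaling by library totals in place of the trimmed mean of M values moved the median of all genes to −0.26 from −0.01 on the log2 scale. Under it the log2 differences were −3.50 for Slpi, −5.28 for Wfdc3, −1.03 for Wfdc17, 1.00 for Wfdc2 and 1.33 for Wfdc21.

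**Figure D2:**
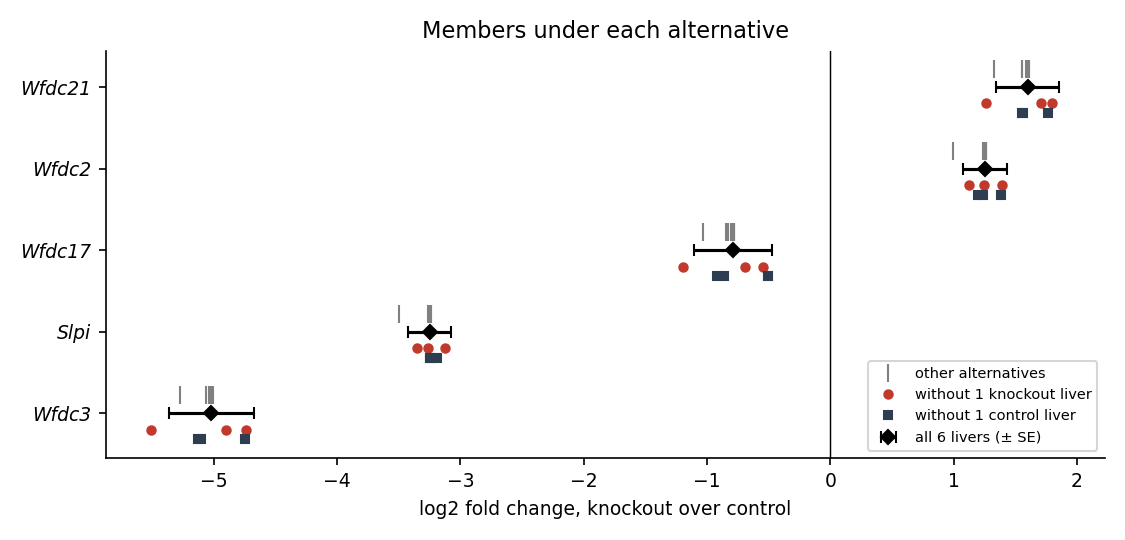
Log2 fold change of the 5 tested members, knockout over control. Black diamonds are the fit with all 6 livers and its SE, red points and dark squares leave out 1 knockout or 1 control liver, and grey ticks are the other alternatives. Each member stays on its side of 0, and Wfdc17 spans −1.19 to −0.50.

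Levels can be compared between genes only per length, so they were divided by the kilobases of exon of each gene. In the knockout livers the order was Wfdc21 (852 ± 319 CPM per kilobase), Wfdc17 (19.1 ± 8.43), Wfdc2 (15.3 ± 2.88), Slpi (1.42 ± 0.22), Wfdc3 (0.295 ± 0.154) and Wfdc15b (0.224 ± 0.241). Wfdc17 and Wfdc2 overlapped over the knockout livers, as did Wfdc3 and Wfdc15b, and the other neighbours did not. In the control livers the order was Wfdc21 (281 ± 46.4 CPM per kilobase), Wfdc17 (33.1 ± 10.0), Slpi (13.5 ± 0.68), Wfdc3 (9.61 ± 2.74), Wfdc2 (6.42 ± 0.88) and Wfdc15b (0.423 ± 0.270), with no neighbours overlapping (SD, n = 3 each). The place of Wfdc2 relative to Slpi and Wfdc3 was thus opposite in the 2 groups. Where a gene has several transcripts, its exons together span more than one of them (1180 bases for Slpi, against 876 in the transcript whose coding sequence is shown above), so these levels depend on the length used.

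The ratio of Wfdc2 to Slpi per kilobase was 7.56, 13.2 and 12.3 in knockout livers and 0.436, 0.518 and 0.464 in control livers. The ratio of Wfdc21 to Wfdc17 was 36.8, 98.9 and 25.6 in knockouts, against 7.51, 8.89 and 9.71 in controls. Such ratios within a liver do not depend on the scaling between libraries. Neither pair of groups overlapped, but the members were chosen on this contrast, so that separation says nothing beyond the choice.

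Wfdc21 made up most of the RNA of the family genes counted here. These were the 6 members, every other gene with a symbol starting in Wfdc, and Eppin, Wfikkn1 and Wfikkn2. Genes of WAP-domain proteins under other names were not looked up. Over 22 family genes, the summed level was 647, 1245 and 783 CPM per kilobase in the knockouts and 409, 323 and 308 in the controls, of which Wfdc21 was 94.5%, 97.4% and 93.3% in the knockouts and 81.7%, 79.2% and 81.6% in the controls. Without Wfdc21 the sums of the knockouts all lay under those of the controls, at 35.8, 32.3 and 52.3 CPM per kilobase in knockouts and 74.8, 67.3 and 56.7 in controls. Within that remainder Slpi was 4.54%, 3.66% and 2.80% in knockouts and 17.7%, 21.3% and 23.1% in controls. Wfdc2 was 34.3%, 48.2% and 34.5% of the remainder in knockouts and 7.72%, 11.0% and 10.7% in controls. Wfdc17 made up 46.4%, 38.0% and 54.6% of it in knockouts and 59.5%, 42.8% and 45.7% in controls, so its share overlapped between the groups.

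**Figure D3:**
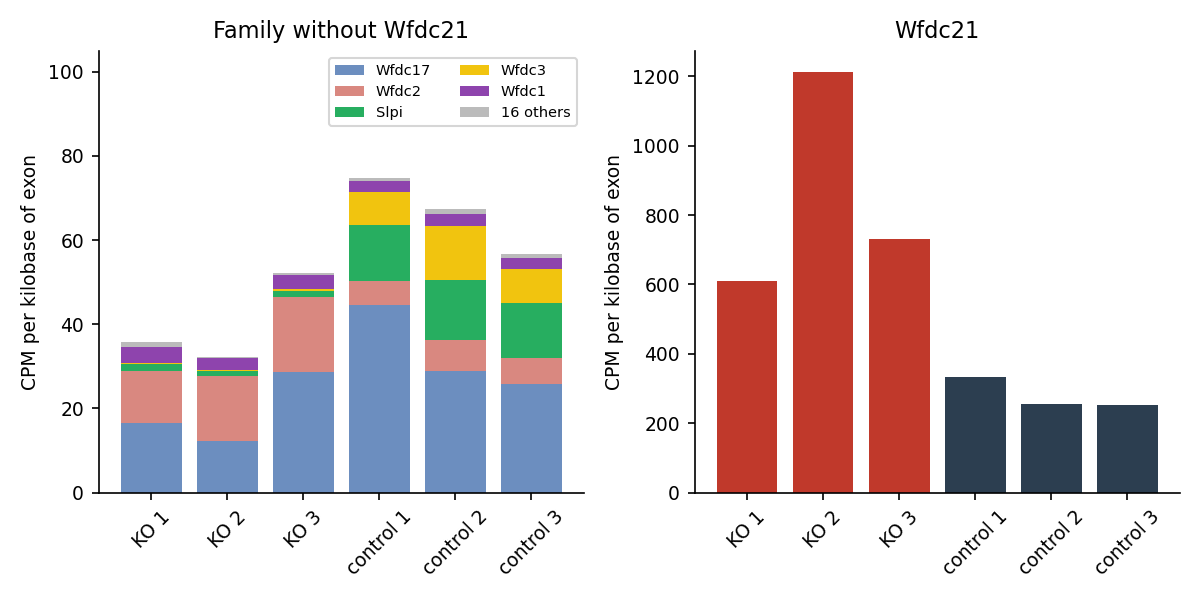
CPM per kilobase of exon in each liver (linear axes from 0), with knockout (KO) livers left and control livers right; the left panel stacks the family without Wfdc21, and the right panel shows Wfdc21 alone. Slpi and Wfdc3 almost vanish from the knockout stacks while Wfdc2 widens, and Wfdc21 reaches 1213 CPM per kilobase in knockout liver 2.

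The other family genes of this set were silent or low. Of 16 other WAP-domain genes, 8 had 0 counts in all 6 livers (Eppin, Wfdc11, Wfdc13, Wfdc15a, Wfdc5, Wfdc6b, Wfdc8 and Wfdc9), and 2 had enough counts to test. Neither passed the edgeR test, DESeq2 and limma-voom also called 0, and the unadjusted p was under 0.05 for 0 of them. Wfdc1, whose product ps20 was described in prostate stroma, stood at 6.04, 4.18 and 5.02 CPM in knockouts and 4.13, 4.49 and 3.82 CPM in controls (log2 0.29, SE 0.21, adjusted p = 0.334). Wfikkn1, which binds growth factors of the myostatin type, had 8, 9 and 11 counts in knockouts and 17, 4 and 11 counts in controls (log2 −0.01, adjusted p = 0.987), and the sign of so small a value changed between alternatives. The related Wfikkn2 had 0, 3 and 0 counts in knockouts and 5, 4 and 4 in controls. Wfdc18, which sits between Wfdc17 and Wfdc21, had 7, 2 and 5 counts in knockouts and 2, 4 and 1 in controls. Wfdc16 had 3, 0 and 0 counts in knockouts and 0, 2 and 3 in controls, and Wfdc12 had 0, 0 and 0 counts in knockouts and 3, 0 and 2 in controls.

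The members lie in 2 clusters. On chromosome 2, Slpi is 132 kilobases from Wfdc15b and 173 kilobases from Wfdc2, and Wfdc2 is 163 kilobases from Wfdc3. On chromosome 11, Wfdc17 and Wfdc21 are 40.7 kilobases apart with Wfdc18 between them. Of 17 genes outside the family that are among the nearest protein-coding neighbours of a member, 7 had 0 counts in every liver, 8 were tested and 2 passed, beside 25% of all genes tested. Both lie next to Wfdc3. Dnttip1, a subunit of a histone deacetylase complex, lies 51 bases from Wfdc3 on the opposite strand and stood at 14.1, 11.0 and 13.7 CPM in knockouts and 27.8, 22.1 and 16.9 CPM in controls (log2 −0.78, SE 0.19, edgeR adjusted p = 0.0209). That call was lost without knockout liver 2, control liver 1 or control liver 2, with adjusted p over 14 alternatives between 0.00254 and 0.0624. Ube2c, a ubiquitin-conjugating enzyme of mitosis, stood at 1.15, 0.48 and 1.08 CPM in knockouts and 1.86, 5.6 and 8.51 CPM in controls (log2 −2.55, SE 0.57, edgeR adjusted p = 0.0141, and 0.0520 with limma-voom).

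Neighbours of the other members did not pass or had too few counts to test. Pigt and Dbndd2, beside Wfdc2, had log2 values of −0.14 (adjusted p = 0.509) and −0.35 (adjusted p = 0.396) by edgeR. The chemokine genes Ccl3 and Ccl4, beside Wfdc17, had log2 values of −1.33 (adjusted p = 0.110) and −1.26 (adjusted p = 0.0903). On the far side of Wfdc21, Heatr6 stood at −0.33 (adjusted p = 0.0932). Matn4 and Rbpjl, next to Slpi, had under 0.2 CPM in each liver, and the seminal vesicle genes Svs2, Svs3b, Svs5 and Svs6 had 0 counts.

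**Figure D4:**
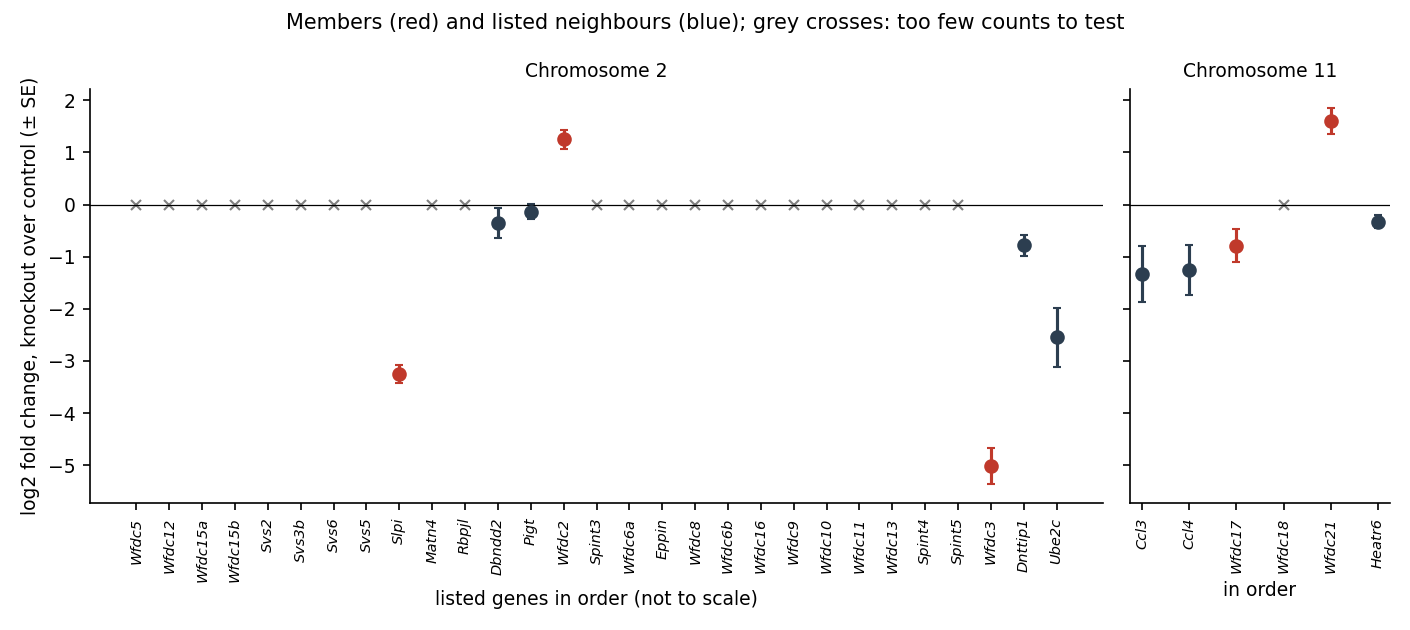
Log2 fold change (knockout over control, bars for the SE) of the members (red) and of listed neighbours (dark blue) in their order along chromosome 2 (left) and chromosome 11 (right), not to scale. Grey crosses at 0 are genes with too few counts to test. Wfdc2 stands above 0 between Slpi and Wfdc3, which stand at −3.25 and −5.02.

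The promoters of the 2 members that were lower by the widest margins are printed so that they can be compared. RefSeq promoter sequences (GRCm38.p6) were found for 5 of the 6 members, and Wfdc21 was without an entry. The 250 bases before each start were searched on both strands for 6 motifs, and each share is that of 32851 promoters of the same length. The letters for the AP-1 motif were TGANTCA (6.75% of promoters), for STAT TTCNNNGAA (7.02%), and for NF-kB GGANTTTCC (1.07%). The TATA box was searched as TATAAA (12.4%), the PU.1 motif as GAGGAAGT (2.44%) and the C/EBP motif as TTGCNNAA (9.56%). Among the 5 members there was 1 match, a C/EBP motif in the Slpi promoter at 241 to 234 bases before the start on the other strand, shown in capitals. A match is a run of letters and no evidence of binding, and the absence of one says only that these letters are not in this window. Bases that overlap annotated exons are left off the Wfdc3 line, and in the Wfdc2 window 0 bases lay outside annotated exons. The RefSeq starts of Slpi (164356507), Wfdc3 (164743267), Wfdc2 (164562715) and Wfdc17 (83704056) lie inside the gene spans given above. Their windows are therefore wholly or partly within the annotated genes.
Slpi, chr2:164356508-164356757, minus strand: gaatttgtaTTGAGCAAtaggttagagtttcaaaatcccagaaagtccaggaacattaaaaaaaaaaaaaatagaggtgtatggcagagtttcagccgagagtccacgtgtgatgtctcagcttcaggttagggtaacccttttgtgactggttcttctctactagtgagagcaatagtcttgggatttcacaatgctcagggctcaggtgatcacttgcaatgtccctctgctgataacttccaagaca
Wfdc3, chr2:164743313-164743517, minus strand: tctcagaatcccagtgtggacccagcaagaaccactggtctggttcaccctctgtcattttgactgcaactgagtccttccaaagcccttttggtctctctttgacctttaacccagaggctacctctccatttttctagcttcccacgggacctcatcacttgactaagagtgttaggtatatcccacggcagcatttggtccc

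RNA of neutrophil elastase and cathepsin G, which Slpi inhibits, was at or near 0 in these livers, and protein was not measured. Elane, the elastase gene, had 0, 3 and 6 counts in knockouts and 7, 0 and 4 counts in controls, and it was named after its values were seen. Of 14 granule proteases of granulocytes and mast cells, nearly all of them serine proteases, 3 were tested and 7 had 0 counts in all livers. Those at 0 were Ctsg (cathepsin G), the proteases Mcpt1, Mcpt2, Mcpt4, Mcpt8 and Tpsb2, and the mast cell carboxypeptidase Cpa3. None of the 3 tested passed in edgeR, 1 had an unadjusted p under 0.05, DESeq2 called 1 and limma-voom 0. Prtn3, proteinase 3 of neutrophil granules, stood at 0.34, 1.11 and 0.10 CPM in knockouts and 2.02, 0.63 and 3.00 CPM in controls, with overlap (log2 −1.87, edgeR adjusted p = 0.108, and 0.0239 to 0.308 over the alternatives). Gzmb, granzyme B, had a log2 value of 0.24 (adjusted p = 0.665), which became −0.01 with library totals.

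Protease inhibitors of other classes also moved both ways. Of 7 serpins and cystatins tested, mostly intracellular ones, 2 were higher and 3 lower in knockout livers. Their median log2 was −0.23, the value of Cst3, against −0.01 over all 14758 genes tested, of which 1751 were higher and 1933 lower. Serpinb6a, an inhibitor of neutrophil cathepsin G in its human form, stood at 19.5, 16.7 and 23.0 CPM in knockouts and 66.0, 80.2 and 72.9 CPM in controls (log2 −1.89, SE 0.15, edgeR adjusted p = 0.000284). Its relative Serpinb6b fell too (log2 −2.29, adjusted p = 0.00164), and so did Cstb, cystatin B, an inhibitor of lysosomal cathepsins (log2 −1.38, adjusted p = 0.00859). Serpinb1a, an inhibitor of neutrophil elastase, rose to 2.16, 0.91 and 2.51 CPM in knockouts, against 0.44, 0.39 and 0.26 CPM in controls (log2 2.34, SE 0.46, adjusted p = 0.00898). Serpinb8 was the other gene higher (log2 0.94, adjusted p = 0.0243). The count of higher genes was 1 without knockout liver 1 or 3 or control liver 1 or 3, and also with library totals or the stricter filter of 50 counts in 3 libraries.

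Among 19 Kunitz, Kazal and plasma protease inhibitors tested, 8 were higher and 1 lower (median log2 0.39), a split that turned to 2 higher and 5 lower with library totals. Mug1, a murinoglobulin of the alpha-2-macroglobulin family, rose (log2 1.03, adjusted p = 0.00285), as did Itih1, a heavy chain of inter-alpha-trypsin inhibitor (log2 0.63, adjusted p = 0.0113), and Serpinc1, antithrombin (log2 0.64, adjusted p = 0.0138). Spink1, the Kazal-type trypsin inhibitor, was the 1 that fell in the edgeR fit (adjusted p = 0.00123), at 0.10, 0 and 0.05 CPM in knockouts and 1.59, 1.5 and 2.56 CPM in controls. The number of higher genes was 4 without knockout liver 1, knockout liver 2, control liver 2 or control liver 3, and 3 with the mouse number as a block.

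Genes of the endotoxin and NF-kB response, the setting in which Slpi is known as a brake, were mostly lower. Of 20 tested, 0 were higher and 15 lower (median log2 −1.06), and 10 to 13 were lower when any 1 liver was left out. Cd14, the endotoxin co-receptor, stood at 8.19, 10.6 and 11.6 CPM in knockouts and 90.1, 70.3 and 36.7 CPM in controls (log2 −2.70, SE 0.31, edgeR adjusted p = 0.00117). The neutrophil chemokines Cxcl1 (log2 −2.99, adjusted p = 0.00205) and Cxcl2 (log2 −2.73, adjusted p = 0.00241) fell, as did Tnfaip3, the A20 inhibitor of NF-kB (log2 −1.61, adjusted p = 0.0034).

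Hepatocyte acute-phase genes showed no common direction. Of 20 tested, 4 were higher and 3 lower (median log2 −0.00). Crp, C-reactive protein, was higher at 523, 494 and 537 CPM in knockouts and 233, 227 and 344 CPM in controls (log2 0.95, SE 0.18, adjusted p = 0.00691), and Orm3, an orosomucoid, was higher as well (log2 1.99, adjusted p = 0.0177). Lcn2, the siderophore-binding lipocalin, was lower at 87.9, 369.6 and 217 CPM in knockouts and 1428, 841 and 1366.5 CPM in controls (log2 −2.43, SE 0.47, adjusted p = 0.00784), and Steap4, a metalloreductase, was lower too (log2 −1.46, adjusted p = 0.0179). The higher genes numbered 1 without control liver 2 or 3 and 2 without knockout liver 1 or 2, and the lower ones numbered 1 without knockout liver 1, control liver 1 or control liver 3. With the mouse number as a block there were 2 higher and 1 lower.

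Of 11 antimicrobial secreted proteins tested, 2 were higher and 6 lower in knockouts (median log2 −1.97). The 6 include Lcn2 and Lyz2, given above. The part of the allele taken by the Cre insertion in the fall of Lyz2 was not tested. Hamp, the iron hormone hepcidin, stood at 38.1, 85.9 and 54.1 CPM in knockouts and 1309, 485 and 410.2 CPM in controls (log2 −3.63, SE 0.50, edgeR adjusted p = 0.00215), and S100a8, a calprotectin subunit, fell (log2 −2.47, adjusted p = 0.0129). The 2 higher genes were Hamp2 (log2 2.31, edgeR adjusted p = 0.0271) and Chil1 (log2 1.48, edgeR adjusted p = 0.0322), so Hamp and Hamp2 differed in opposite directions. The higher genes numbered 0 without knockout liver 1, knockout liver 2 or control liver 3, and 1 without knockout liver 3 or control liver 2, with library totals or with the stricter filter.

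**Figure D5:**
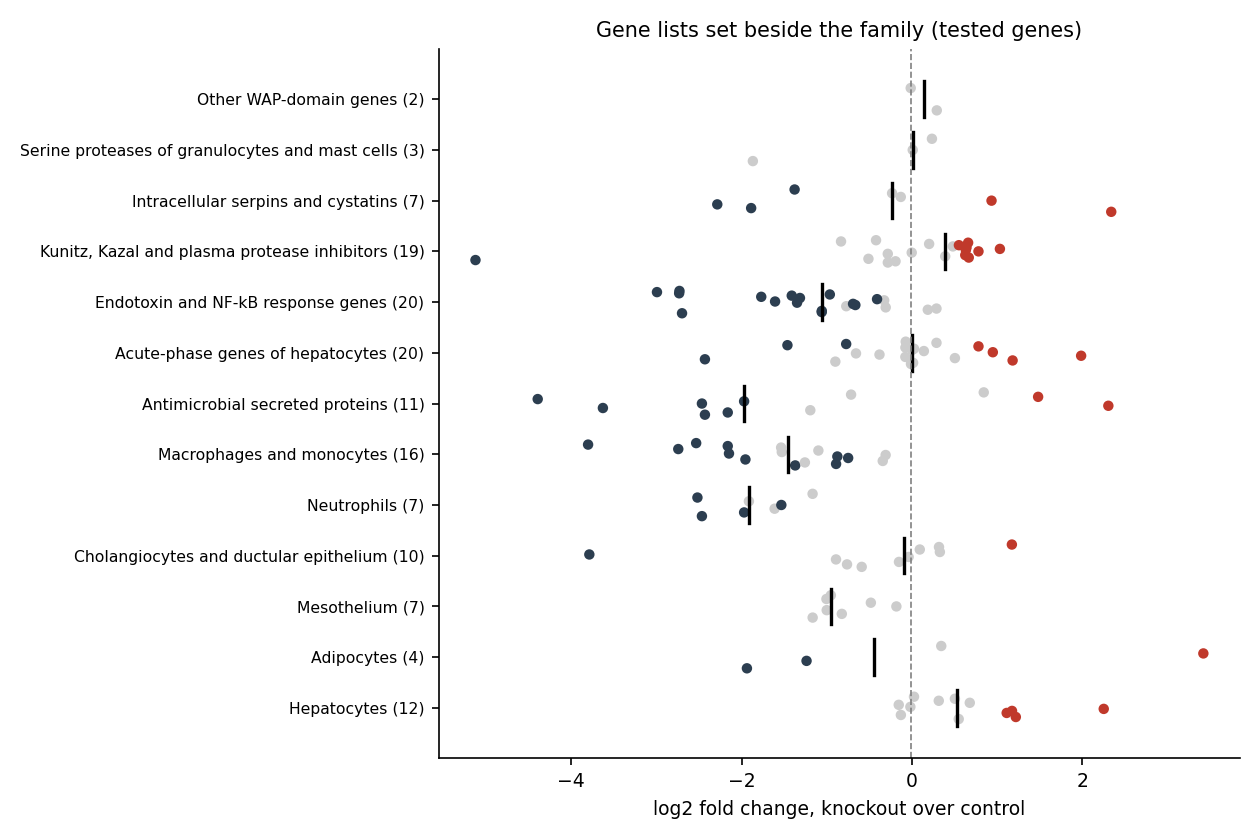
Log2 fold change (knockout over control) of the tested genes of each list, with their number in parentheses; red and dark blue points passed the edgeR test as higher and lower, grey points did not, black bars are list medians and the dashed line is the median of all genes. Endotoxin, antimicrobial, macrophage and neutrophil genes lie mostly left of 0, with medians of −1.06, −1.97, −1.45 and −1.91.

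The tested markers of immune cells leaned lower, as Slpi (log2 −3.25) and Wfdc3 (log2 −5.02) did, and none fell as far as Wfdc3. Of 16 macrophage and monocyte markers, all tested, 0 were higher and 10 lower (median log2 −1.45), with a summed level of 287 to 532 CPM in knockouts and 916 to 975 CPM in controls. The count was 5 without knockout liver 1 and 6 without control liver 1. The monocyte receptor Cx3cr1 (log2 −2.74, adjusted p = 0.000605), Gpnmb (log2 −3.80, adjusted p = 0.001) and the Kupffer cell receptor Marco (log2 −1.95, adjusted p = 0.00124) fell, with Lyz2. The count and the sum include Lyz2, at 41.3, 36.9 and 66.5 CPM in knockouts and 195, 218 and 235 CPM in controls. The Cre insertion takes 1 allele of Lyz2, and the part of that loss in the 4.48-fold fall of Lyz2 was not tested. Of 7 neutrophil markers tested out of 12 listed, 0 were higher and 4 lower (median log2 −1.91), with sums of 3.83 to 9.16 CPM in knockouts and 17.0 to 33.0 CPM in controls. They were Csf3r (log2 −1.53, adjusted p = 0.00837), S100a8, S100a9 (log2 −1.97, adjusted p = 0.0214) and Mmp8 (log2 −2.52, adjusted p = 0.0209). Their number was 2 without knockout liver 1, without control liver 1 or with the block, and 7 with library totals. Lyz2, S100a8 and S100a9 are also on the antimicrobial list, and Lcn2 is on that and the acute-phase list. The part of these markers in the lower Slpi and Wfdc3 was not tested.

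The log2 values of the 16 macrophage and monocyte markers ran from −3.80 (Gpnmb) to −0.31 (Timd4). Slpi, at −3.25, lay below all of them but Gpnmb, the next being Cx3cr1 at −2.74. Wfdc17, at −0.79, lay among them, so how it stands against them depends on the marker. Per count of Adgre1, the gene of F4/80, Slpi had 0.101, 0.125 and 0.057 counts in knockouts and 0.247, 0.357 and 0.336 counts in controls. For Wfdc17 the same ratio was 0.468, 0.586 and 0.499 in knockouts and 0.376, 0.324 and 0.301 in controls, so it was higher in every knockout. Set against Csf1r, the receptor for the macrophage growth factor CSF1, the Wfdc17 ratio overlapped, at 0.118, 0.125 and 0.152 in knockouts and 0.152, 0.110 and 0.110 in controls. Within each group the order of Wfdc17 over the livers was that of the summed macrophage markers, with 287, 410 and 532 CPM in knockout livers 2, 1 and 3 and 916, 940 and 975 CPM in control livers 3, 2 and 1. Which cells expressed either gene was not measured.

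Markers of epithelium, mesothelium and fat are given because Wfdc2 and Wfdc21 are known from such cells. Of 10 cholangiocyte markers tested, 1 was higher (Onecut1, log2 1.17, adjusted p = 0.00361) and 1 lower (Cldn4, log2 −3.79, adjusted p = 0.0129, called by edgeR but not by limma-voom), with a median log2 of −0.09. Their sum was 91.3 to 98.6 CPM in knockouts and 85.5 to 89.1 CPM in controls, and 2 were lower with library totals or without knockout liver 2. Of 7 mesothelial markers tested, 0 passed in edgeR, DESeq2 or limma-voom, 0 reached an unadjusted p below 0.05, and 2 passed as lower without the filter on low counts. Their sum of 607 to 2286 CPM in knockouts and 1711 to 3680 CPM in controls came mostly from Krt8 (log2 −1.003, adjusted p = 0.151) and Krt18 (log2 −0.95, adjusted p = 0.164), which other epithelial cells also make.

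For fat cells, the defining markers Adipoq and Lep were at 0 counts in all 6 livers. Of 4 adipocyte markers tested, Car3, a carbonic anhydrase, was higher (log2 3.42, adjusted p = 0.00442), and the lipid droplet gene Cidec (log2 −1.94, adjusted p = 0.00283) and Fabp4 (log2 −1.24, adjusted p = 0.012) were lower by edgeR. With Adipoq and Lep at 0 counts, the cells that expressed these genes were not determined. The count of higher genes was 2 without knockout liver 2. All 12 hepatocyte markers were detected and tested, and 4 were higher and 0 lower (median log2 0.53), among them Cyp2e1, the ethanol-oxidising P450, at 3745, 6319.8 and 3204 CPM in knockouts and 1127, 563 and 1091 CPM in controls (log2 2.25, SE 0.34, adjusted p = 0.00323). Ttr (log2 1.22, adjusted p = 0.0026), Serpina1c (log2 1.18, adjusted p = 0.0199) and Cps1 (log2 1.11, adjusted p = 0.0346) were the others, and 2 passed without control liver 1.

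For each tested member, up to 3 protein-coding genes with the most similar log2 CPM over the 6 livers were named out of 12114 genes with a mean of at least 1 CPM. The similarity is Pearson's r over 6 livers that fall into the 2 groups, so it holds the group difference as well as the spread within groups, and it is a description. The genes nearest to Slpi were Tnip1, a binding partner of A20 (r = 0.999), and the phosphodiesterase Pde10a (r = 0.998). Nearest to Wfdc3 were Serpinb6a (r = 0.999), the vomeronasal receptor gene Vmn2r3 (r = 0.999) and the CTP synthase Ctps2 (r = 0.998). An r above 0.99 was reached by 44 genes for Slpi and by 55 for Wfdc3.

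The closest genes to Wfdc2 were the metalloprotease Adamts7 (r = 0.995), the proton pump assembly factor Vma21 (r = 0.994) and the biotin ligase Hlcs (r = 0.991), and 5 genes exceeded 0.99. Wfdc21 was followed by Rnft1, Zc3h7b and Fhad1 (r = 0.995 each), with 11 genes above 0.99. In the case of Wfdc17, whose groups overlapped, the nearest were Coa3, an assembly factor of cytochrome oxidase (r = 0.997), the mitochondrial ribosomal gene Mrpl54 (r = 0.995) and the immune receptor Pilrb2 (r = 0.993), and 10 genes exceeded 0.99. Coa3 stood at 37.0, 33.6 and 43.8 CPM in knockouts and 49.8, 43.5 and 41.3 CPM in controls, with the same order of the livers within each group as Wfdc17 and much narrower differences.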

How the data were processed

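Whole-liver RNA of 6 mice was sequenced from poly-A-selected libraries. The authors deposited raw read counts per Ensembl gene, 1 column per mouse; the submitters' processing notes list featureCounts 1.5.0-p3, StringTie 1.3.3b, HISAT2 2.0.5 and the genome GRCm38.p6. Strand and multi-mapping settings are not given in the sources used here.

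Of 54532 identifiers, 54495 matched GENCODE M21. Genes kept by filterByExpr were normalised by TMM (trimmed mean of M values) and compared by edgeR 4.0.16 in R 4.3.3, with its quasi-likelihood test and no covariates, with Benjamini-Hochberg adjustment over all 14758 genes and a threshold of 0.05, which gave every adjusted p not credited to another tool. The SE is the log2 value divided by the square root of F. CPM used the scaled library sizes. Alternatives were DESeq2 1.42.0, limma-voom 3.58.1, other scalings and filters, a block on mouse number and leaving out each liver. The steps were tested on simulated counts.

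Libraries of 18428224 to 24042917 counts make 3 counts worth 0.119 to 0.148 CPM, for counting error alone. Replicates differed by more than sampling noise (chi-square of 26.9 or more per degree of freedom). The members, gene lists and naming rule (up to 4 called genes of smallest p per list, or 2 if none, 2 neighbours per side, 3 similar genes per member) were chosen with earlier results of these data known. Serpinb8, Hamp2, Chil1, the neutrophil marker S100a9 and the genes at 0 were named to complete counts. Some genes chosen by this rule are left out here. The labels number the mice and give no litter or day. The p-values set the group difference against the spread between these mice, from which litter or day cannot be separated.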

Additional observations from a re-analysis of the deposited data

How the results depend on the processing

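The number of genes past the threshold was 3684. It was 1515 at an adjusted p under 0.01 and 2275 to 3413 with 1 liver left out, the lowest being without control liver 2 and then without knockout liver 1 (2296). Library totals gave 904 higher and 3698 lower genes (19.6% higher, against 47.5%), and the other scalings, filters and tools stayed within 1.5 times the first count. The mouse numbers did not pair the livers (correlations of same-numbered deviations −0.027, 0.044 and −0.018), and the replicate block gave 3086 genes. Over 68 named genes and 939 values, 871 kept direction and side of the threshold, 45 lost the call, 14 gained it and 9 changed sign, and the block changed 6 calls. The sign changes were in values near 0: with library totals Gzmb became −0.0121 and Zc3h7b −0.0816; Wfikkn1 became 0.0663 with the block, 0.0045 with DESeq2, 0.12 with limma-voom, and lay between −0.3313 and 0.4187 with 1 liver left out, above 0 without knockout liver 1 or 2 or control liver 1 or 3. Wfdc17, like the other members chosen on this contrast, was past the threshold with library totals, without the filter and without knockout liver 3, and not otherwise. The cause was not tested. At this depth Wfdc15b and most of the 22 family genes cannot be compared between groups.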
